A study of Caenorhabditis elegans with 8 samples.

Results

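Cytosolic ribosomes are built from a large and a small subunit, each an RNA core covered by many proteins that are made in nearly equal numbers. Animal cells spend much of their transcription and translation on these proteins, and the genes that encode them tend to be expressed together and to follow nutrient and growth signals such as those of the TOR kinase. In Caenorhabditis elegans the L4 larva stops feeding and moving in the sleep-like phase that precedes its last molt, and the level of ribosomal protein transcripts was therefore compared here as a readout of growth state.

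The genes described are the cytosolic ribosomal proteins, taken as every gene whose symbol is rpl- or rps- followed by a number, together with the stalk proteins of the large subunit. The reference annotation held 82 such genes, and 81 of them had at least 1 probe on the array, of 19791 genes named by probes in all. rpl-13A had no matched probe and was not analysed here. The 81 genes were read by 264 probes, 25 genes by a single probe and 3 genes by as many as 12. The set comprised 47 proteins of the large subunit, 30 of the small subunit and 4 of the stalk. Of these genes 26 lie on chromosome I, 11 on II, 17 on III, 18 on IV, 7 on V and 2 on X.

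Whole hermaphrodites at the L4 sleep stage were compared between aptf-1(gk794) mutants and the wild type N2. The aptf-1 gene codes for a transcription factor of the AP2 family that acts in the sleep-inducing neuron RIS, and mutant larvae of this stage are known not to become immobile, which limits what the label sleeping means for them. For each sample 200 larvae grown on E. coli OP50 at 21.5 °C were picked and pooled, and 200 ng of their RNA was amplified, labelled with Cy3 and hybridised to its own one-colour Agilent array. There were 4 samples of each genotype, the mutant strain is listed by the study as backcrossed to N2, and no strain with a second allele or a rescuing transgene was among the arrays. The study calls the 4 samples of each genotype biological. Nothing in the labels says that replicates of a genotype came from separate cultures, so the p-values below measure the spread between these samples, which may in part be technical. In whole animals, fewer cells of a kind and less RNA per cell cannot be told apart.

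The single probe of aptf-1 gave -5.96, -7.22, -4.29 and -7.13 in aptf-1(gk794) replicates 1 to 4 and -5.34, -5.24, -5.18 and -5.58 in N2 replicates 1 to 4, as log2 signal over the 75th percentile of the array. The library labelled aptf-1(gk794) replicate 3 thus lay above every N2 library, and the place of the probe relative to the deletion is not known here. Every one of these values lay far below the 75th percentile, so the probe was dim and its log2 differences are uncertain. flp-11, a neuropeptide gene of RIS, was low in all 4 libraries labelled aptf-1(gk794) at -0.71 to -0.64 and high in the 4 N2 libraries at 0.45 to 0.60 (exact permutation test, two-sided, p = 0.0286, the smallest that 70 assignments allow). The study reported lower flp-11 in the mutant from these same arrays, besides embryos and reporter lines. This p is therefore no independent check of the labels. Libraries are named below by their labels, and the results are given with the library labelled aptf-1(gk794) replicate 3 unless stated otherwise. Markers of molting larvae stood apart on the libraries labelled aptf-1(gk794) replicates 3 and 4, where the median deviation of 4 genes was 0.56 and 0.58 against -0.36 to -0.11 on the other 6. The size differed between these genes. mlt-10 gave a log2 level of 2.19 and 1.54 on these libraries against -3.79 to -1.97 on the other 6, while nas-37 overlapped. Every marker listed for neurons, body wall muscle, intestine, germ line and yolk passed the filter on signal in these whole-animal samples, as did 3 sperm markers and 2 of 4 epidermal ones. The 4 intestine markers were all lower in aptf-1(gk794), with a median of -0.27 under the 75th percentile and of -0.18 under quantile normalization. Under the 75th percentile 2 of them were so at an unadjusted p under 0.05, beside 7.76% of all genes. The median deviation of the 4 intestine markers was -0.11 to -0.095 on the arrays labelled aptf-1(gk794) and -0.065 to 0.37 on the N2 arrays, without overlap. Body wall muscle markers were lower in 4 of 4 genes with a median of -0.14, but in 2 of 4 with a median of -0.027 under quantile normalization. Yolk and adult markers were lower in 3 of 4, with medians of -0.34 and -0.22 under these scalings, and 3 of 3 sperm markers were lower with a median of -0.10, or 2 of 3 with -0.015. The medians of the 4 neuronal and the 4 germ line markers were 0.028 and 0.0040 under the 75th percentile. Of the 2 epidermal markers tested, rol-6 differed by 2.05 and col-19 by -0.37, with a median of 0.84. rol-6 gave 3.70 and 3.03 on the libraries labelled aptf-1(gk794) replicates 3 and 4, against -1.03 to 1.07 on the other 6. No marker was called. The part of these differences in the ribosomal protein values was not tested.

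Each of the 264 probes gave signal well above background on every one of the 8 arrays, and none was saturated. The brightest of their spots reached 31.1% of the lowest saturation value. Ribosomal protein probes were among the brightest of the array. They made up 144 of the 321 tested probes above the 99th percentile of mean signal, or 44.9%, but only 0.825% of the 32004 probes tested. The median gene gave 6.91 on the log2 scale over the 75th percentile of its array, about 120.0 times that percentile. Probe brightness depends on the probe as well as on the transcript, so genes are not ranked by it.

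No ribosomal protein transcript passed the test between genotypes. None of the 264 probes was called at an adjusted p under 0.05 with a difference of at least 1.5-fold, and the smallest adjusted p of a member was 0.298 (limma, Benjamini-Hochberg over all 32004 probes). Over the whole array 19 probes were called, or 0.0594%, with 15 lower in the mutant (0.0469%) and 4 higher (0.0125%). With each gene taken as the mean of its probes the smallest adjusted p of a member was 0.365 over 18312 gene values, of which 17 were called (0.0928%). No member was called under any alternative processing.

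The intervals of the differences were narrow. The 95% interval of limma reached a median of 0.19 on either side of the estimate on the log2 scale, and for 79 of the 81 genes it lay wholly inside a 1.5-fold change in either direction, under the scaling of each array to its 75th percentile. The exceptions were rps-27 and rpl-24, described below. Without them the lowest bound was -0.51 and the highest 0.36. For 72 of the 81 genes the interval included no difference at all. These bounds hold for the spread between these samples and for this scaling, and the plot of differences by subunit shows them gene by gene.

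**Figure D1:**
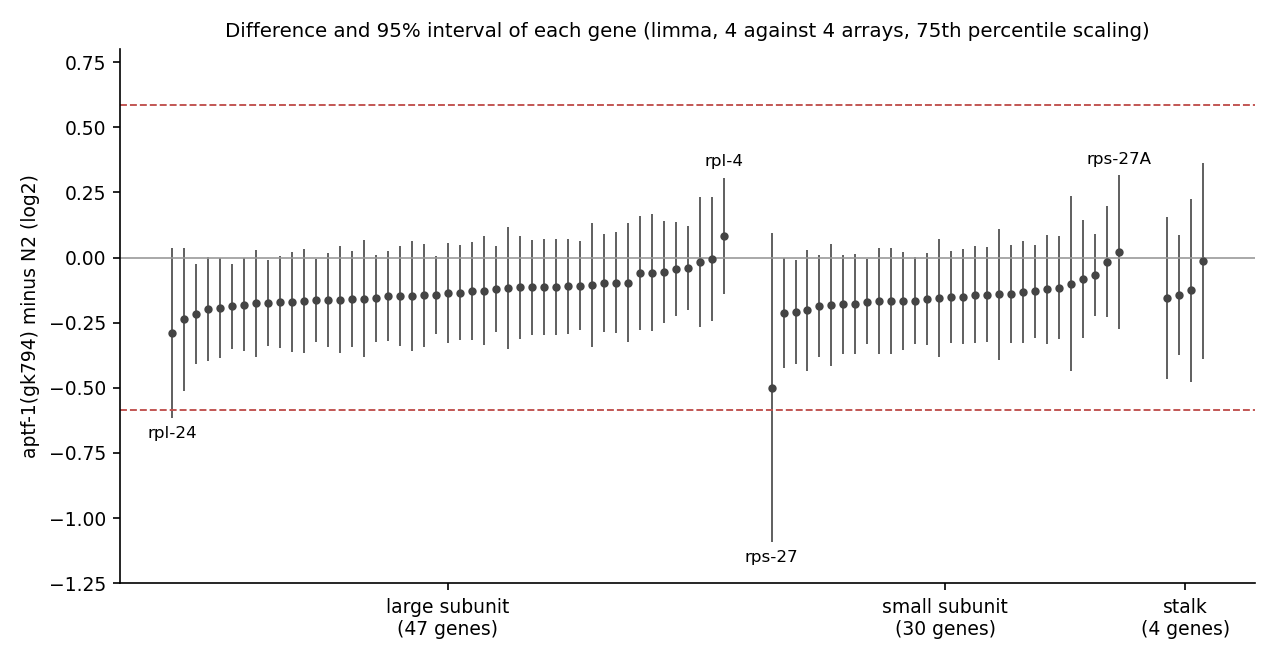
Difference between aptf-1(gk794) and N2 on the log2 scale for each of the 81 genes, grouped by subunit and sorted, after scaling each array to its 75th percentile; points are limma estimates from 4 against 4 arrays, bars their 95% intervals, and dashed lines a 1.5-fold change. Only the intervals of rpl-24 and rps-27 cross a dashed line, and 79 of the 81 estimates lie below 0 under this scaling, against 19 of 81 under quantile normalization.

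The direction of the small remaining difference depended on how the arrays were put on a common scale. With each array scaled to its 75th percentile, 79 of the 81 genes were lower in aptf-1(gk794) with a median of -0.14 on the log2 scale, or 90.5% of the N2 level, while under quantile normalization 62 of the 81 were higher with a median of 0.035. Over all genes 54.7% were lower under the 75th percentile with a median of -0.026, so the ribosomal protein median lay at -0.12 relative to it. Under quantile normalization 53.1% of all genes were lower, with a median of -0.017. Scaling to the median of each array gave -0.16 for the ribosomal protein genes, and the deposited table, which was quantile normalised, gave 0.039.

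Scaling to the spike-in probes moved all genes together. The median of all genes was then 0.46 higher in aptf-1(gk794) and that of the ribosomal protein genes 0.35 higher, so that relative to all genes they lay at -0.12, as with the 75th percentile. Much of the common shift came from N2 replicate 1, where the spike-in probes stood 3.29 above the 75th percentile on the log2 scale, against 1.82 to 2.41 on the other N2 arrays and 1.75 to 2.22 on the arrays labelled aptf-1(gk794). Without that library the median of all genes was 0.18 and that of the ribosomal protein genes 0.098, or -0.080 relative to all genes. Under quantile normalization they lay at 0.052 relative to all genes.

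**Figure D2:**
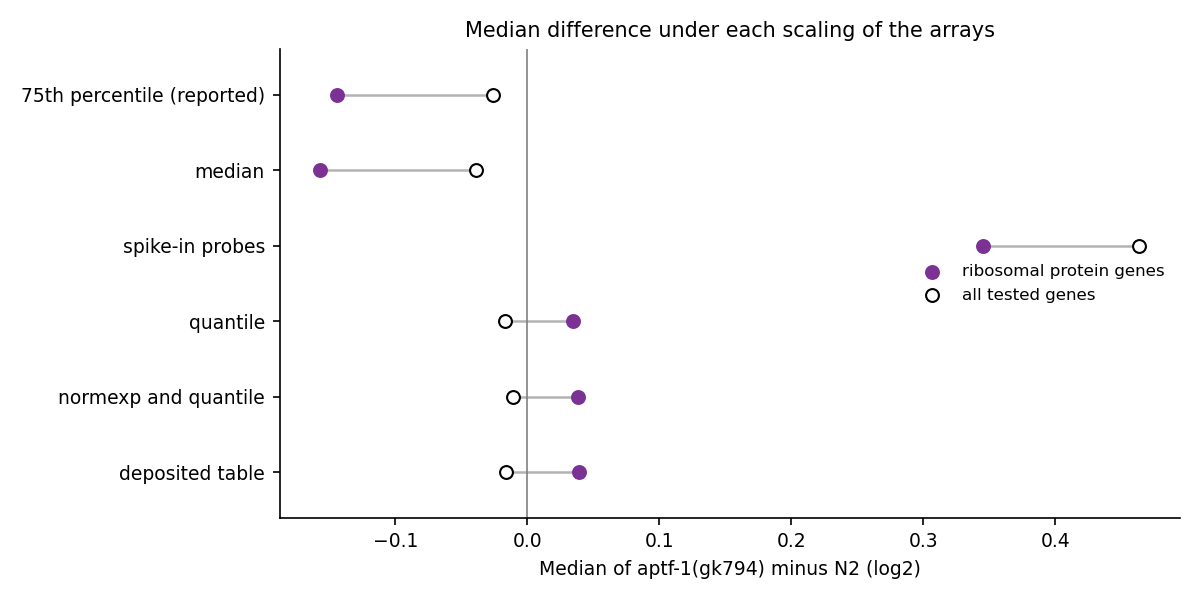
Median difference between aptf-1(gk794) and N2 on the log2 scale over the 81 ribosomal protein genes (filled) and over all tested genes (open) under 6 ways of scaling the arrays. The ribosomal protein median lies below that of all genes under the 75th percentile, median and spike-in scalings, at -0.14 against -0.026 under the first, and above it under the 3 that equalise the whole distribution, at 0.035 against -0.017 under quantile normalization.

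The bright end of the arrays differed between genotypes also among probes that are not ribosomal. Over 31740 such probes the 99th percentile lay at 5.92 to 6.0 on the arrays labelled aptf-1(gk794) and at 6.06 to 6.18 on the N2 arrays, on the log2 scale over the 75th percentile. The 95th percentile lay at 3.38 to 3.44 and at 3.46 to 3.51. The groups did not overlap in either. Quantile normalization removes such a difference by construction, and its part in the ribosomal protein values was not tested.

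At an unadjusted p under 0.05, 9 of the 81 genes were lower in aptf-1(gk794) and 0 were higher under the 75th percentile, against 0 lower and 3 higher under quantile normalization. The 9 are 11.1% of the set, beside 7.76% of all genes that were lower at that threshold and 4.48% that were higher. Of the probes 40 were lower, or 15.2% beside 7.71% of all probes, and 0 were higher, beside 3.86%. The 3 genes under quantile normalization are 3.70% of the set, beside 4.53% of all genes that were higher and 7.33% that were lower there. The count of 9 moved with the fit and the scaling, to 3 with the slide as a block, to 0 with slide and position and to 15 under median scaling. It also rested on single libraries. It was 2, 3, 4 and 1 without aptf-1(gk794) replicates 1, 2, 3 and 4, and 0, 1, 12 and 0 without N2 replicates 1, 2, 3 and 4. The shares of all genes at this threshold were not counted for median scaling or for these other fits. Under median scaling 57.1% of all genes had a lower mean in aptf-1(gk794).

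For 17 genes, or 21.0%, all 4 arrays labelled aptf-1(gk794) lay below all 4 N2 arrays under the 75th percentile, and for 0 genes above, while under quantile normalization the counts were 0 and 6. Over all genes the shares were 5.01% below and 3.10% above under the first scaling, and 4.58% and 3.21% under the second. Of the 17 genes, 8 encode large subunit proteins and 9 small subunit proteins. Without the library labelled aptf-1(gk794) replicate 3 further genes lay apart, among them rpl-15, rpl-27 and rps-5. Leaving out a library can only keep or raise such a count, and the share of all genes was not counted then.

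The members shifted together from array to array. The median deviation of the 81 genes from their means over the 8 arrays was -0.18, 0.023, -0.064 and -0.055 on aptf-1(gk794) replicates 1 to 4 and 0.15, 0.047, -0.0067 and 0.096 on N2 replicates 1 to 4, on the log2 scale under the 75th percentile. The genotypes overlapped in this median, since aptf-1(gk794) replicate 2 lay above N2 replicate 3. aptf-1(gk794) replicate 1 was the lowest array for 64 of the 81 genes, and N2 replicate 1 was the highest for 51. The latter was also the dimmest array, with a 75th percentile of 317 intensity units against 432 to 842 on the other 7. The part of brightness in the shift was not tested.

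**Figure D3:**
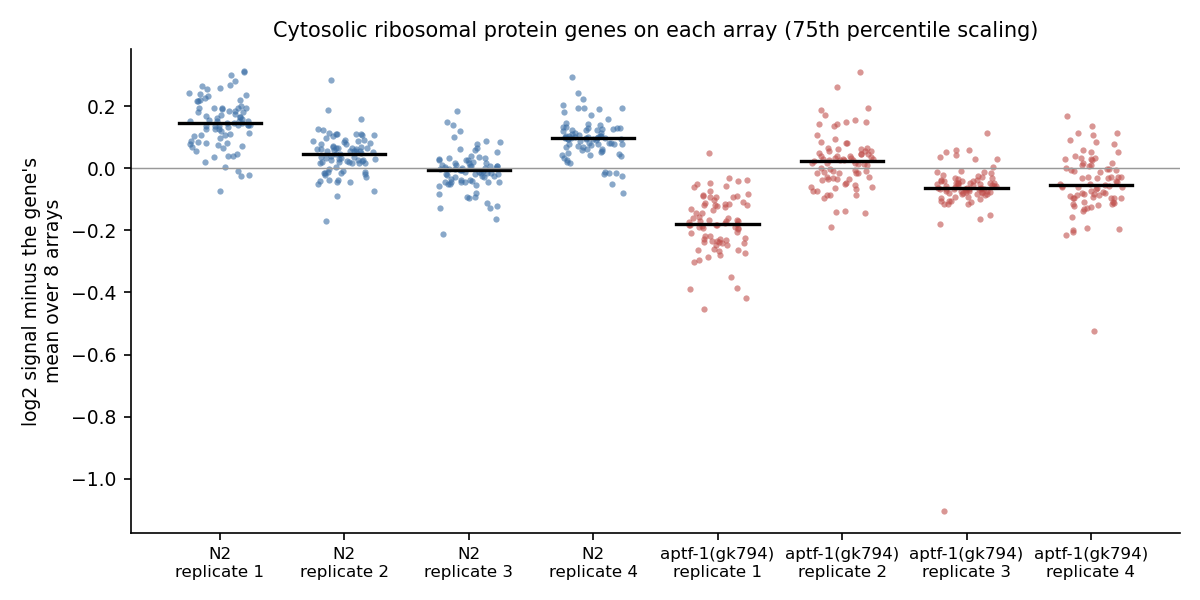
Deviation of each of the 81 ribosomal protein genes (points) from its own mean over the 8 arrays, on the log2 scale after scaling each array to its 75th percentile, with the median of each array (black line); N2 in blue and aptf-1(gk794) in red. The medians run from -0.18 on aptf-1(gk794) replicate 1 to 0.15 on N2 replicate 1 and overlap between genotypes, and the single point near -1.1 is rps-27; under quantile normalization the median difference between genotypes is 0.035 rather than -0.14.

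The correlation between pairs of members over the 8 arrays had a median of 0.71, with 97.6% of pairs above 0. With the genotype means taken out the median was 0.59, with 89.5% of pairs above 0. The points share their arrays, and with them the scaling and the brightness of each array, and these correlations are given as a description only. The spread between replicates was small, with a median SD of 0.10 in aptf-1(gk794) and 0.085 in N2, and it was larger in the mutant for 55 of the 81 genes.

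The arrays lay on 2 slides of 4 arrays, each holding 2 samples of either genotype. Under the 75th percentile the arrays of one slide alone gave a median difference of -0.15 and those of the other -0.13, and 71 of the 81 genes were lower in aptf-1(gk794) on both, a direction that the scaling to quantiles turned for the median. Of all genes 52.2% were lower on the one slide alone and 54.1% on the other, and the share lower on both was not counted. N2 held the first 2 positions of each slide and aptf-1(gk794) the last 2, so position and genotype cannot be told apart other than through an assumed linear trend. A fit with such a trend and the slide gave a median of -0.20, beside -0.011 for all genes.

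The 47 large subunit proteins had a median difference of -0.14 under the 75th percentile, with 46 lower and 1 higher, and of 0.033 under quantile normalization. 6 of them were lower at an unadjusted p under 0.05. Their differences ran from -0.29 for rpl-24 to 0.085 for rpl-4. No gene of this subunit passed the adjusted test.

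rpl-31, whose protein sits at the exit of the tunnel through which the new peptide leaves, had the smallest adjusted p among the gene values of the set. It gave 6.06, 6.13, 6.11 and 6.08 in aptf-1(gk794) replicates 1 to 4 and 6.31, 6.28, 6.19 and 6.34 in N2 replicates 1 to 4, as a log2 level over the 75th percentile. The groups did not overlap, with means of 6.09 ± 0.032 and 6.28 ± 0.068 (SD, n = 4 each). The difference of -0.19 ± 0.071 (SE) had an adjusted p of 0.365 (limma). Its 12 probes were all lower, by -0.26 to -0.079.

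In the mean of their probes rpl-13 and rpl-29 also did not overlap between genotypes, and their mutant samples lay close to each other. rpl-13 measured 6.63, 6.65, 6.63 and 6.64 in aptf-1(gk794) and 6.88, 6.81, 6.71 and 6.82 in N2, a difference of -0.16 ± 0.069 (SE, adjusted p = 0.40). Under normexp correction with quantile normalization that difference was 0.10. The 2 probes of rpl-13 moved in opposite directions over the mutant arrays, so the closeness is that of their mean. The brighter gave 7.86, 8.18, 7.92 and 8.12 in aptf-1(gk794) and overlapped N2, with a difference of -0.085. The dimmer gave 5.40, 5.12, 5.35 and 5.16 there, with a difference of -0.24 and no overlap. rpl-29, whose product is not essential in mice but affects their growth, measured 6.44 to 6.47 in aptf-1(gk794) and 6.53 to 6.72 in N2, a difference of -0.17 ± 0.072 (SE, adjusted p = 0.393).

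rpl-24 had the largest difference of this subunit, and it came from its dim probes. Its gene level was -1.93, -2.07, -1.99 and -2.50 in aptf-1(gk794) and -1.72, -1.79, -2.03 and -1.79 in N2, a difference of -0.29 ± 0.14 (SE, adjusted p = 0.436). N2 replicate 3 lay within the mutant range, and aptf-1(gk794) replicate 4 was the lowest. Of its 6 probes, 5 are designed to a transcript model of their own and lay at -4.89 to -3.45, with differences of -0.40 to -0.21. The remaining probe, to the other model, was bright, at 7.67 to 7.89 in aptf-1(gk794) and 7.78 to 8.14 in N2, with a difference of -0.15. In the fit with slide and position the sign of the gene level turned, to 0.19.

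rpl-4, whose protein lines the exit tunnel, was the only large subunit gene with a higher mean in aptf-1(gk794). It measured 7.28, 7.54, 7.28 and 7.46 there and 7.28, 7.18, 7.44 and 7.34 in N2. The samples overlapped over most of their range, and the difference of 0.085 ± 0.097 (SE) had an adjusted p of 0.70. It rests on a single probe, and the fit with slide and position gave -0.30.

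4 large subunit genes are known in C. elegans to be spliced in part into transcripts that nonsense-mediated decay removes, a form of feedback by the proteins on their own messages. rpl-3, which reaches towards the peptidyl transferase centre, measured 6.29, 6.47, 6.46 and 6.39 in aptf-1(gk794) and 6.73, 6.56, 6.50 and 6.60 in N2, a difference of -0.19 ± 0.084 (SE, adjusted p = 0.406) without overlap. For rpl-10a, the protein of the L1 stalk, the difference was -0.17, for rpl-12 at the base of the other stalk it was -0.16, and for rpl-7A -0.12. These 3 overlapped between genotypes. Under quantile normalization rpl-10a, rpl-12 and rpl-7A lay at 0.0097, 0.029 and 0.082. Array probes of a gene may detect the productive and the degraded form together, and the forms were not separated here.

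**Figure D4:**
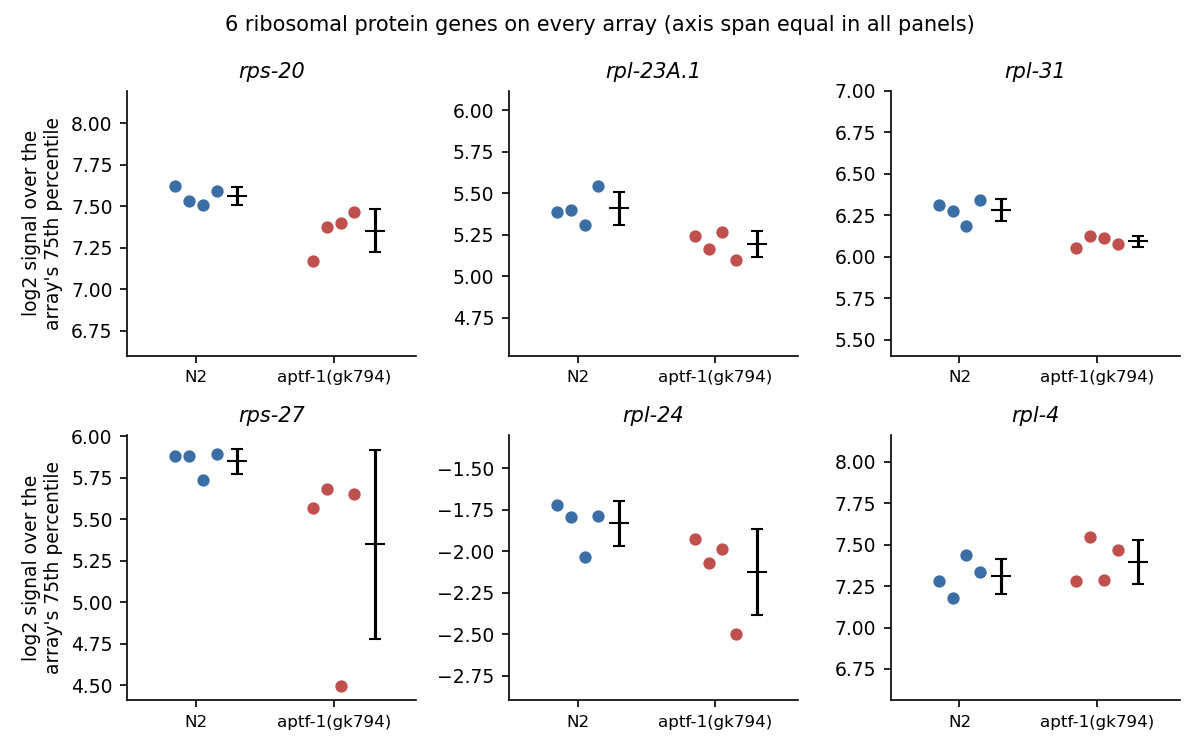
Log2 signal over the 75th percentile of each array for 6 ribosomal protein genes in the 4 N2 (blue) and the 4 aptf-1(gk794) (red) samples, in the order of their replicate numbers, with the mean and SD of each group (black) and panels of equal span. rps-20, rpl-23A.1 and rpl-31 do not overlap between genotypes under this scaling, rps-27 has a single mutant sample at 4.50, and rpl-24 and rpl-4 overlap.

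The 30 small subunit proteins had a median difference of -0.15 under the 75th percentile, with 29 lower and 1 higher, and of 0.029 under quantile normalization. 3 of them, rps-7, rps-19 and rps-20, were lower at an unadjusted p under 0.05. None passed the adjusted test.

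rps-20, a protein of the head of the small subunit, measured 7.17, 7.37, 7.40 and 7.47 in aptf-1(gk794) replicates 1 to 4 and 7.62, 7.53, 7.51 and 7.59 in N2 replicates 1 to 4. Its groups did not overlap, and the difference of -0.21 ± 0.087 (SE) had an adjusted p of 0.393. All of its 10 probes were lower, by -0.37 to -0.098.

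rps-19, the gene whose human counterpart is most often mutated in Diamond-Blackfan anaemia, measured 6.61, 6.89, 6.86 and 6.84 in aptf-1(gk794) and 7.12, 6.98, 6.92 and 7.04 in N2. The highest mutant sample lay just below the lowest N2 sample, and the difference was -0.21 ± 0.092 (SE, adjusted p = 0.406). rps-7 measured 6.86 to 6.99 in aptf-1(gk794) and 7.06 to 7.17 in N2, a difference of -0.17 ± 0.071 (SE, adjusted p = 0.402). Under quantile normalization rps-7 lay at 0.0033.

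rps-27, a zinc-binding protein of the small subunit, had the largest difference of the set and owed most of it to 1 library. Its single probe measured 5.57, 5.68, 4.50 and 5.65 in aptf-1(gk794) replicates 1 to 4 and 5.88, 5.88, 5.74 and 5.89 in N2 replicates 1 to 4. Every mutant sample lay below every N2 sample, and the library labelled replicate 3 lay far below the other 3. The difference was -0.50 ± 0.26 (SE, adjusted p = 0.459), with a 95% interval from -1.09 to 0.093. Without that library it was -0.21. The name rps-27A belongs to another gene, whose protein is made as a fusion with a ubiquitin-like protein. rps-27A was the only small subunit gene with a higher mean in the mutant, 7.36 ± 0.22 against 7.34 ± 0.14 (SD, n = 4 each), a difference of 0.021 that was well within the spread.

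The 4 stalk genes encode the acidic proteins that recruit the elongation factors to the ribosome and the protein that anchors them. Their median difference was -0.14 under the 75th percentile and 0.061 under quantile normalization, and none was lower at an unadjusted p under 0.05. rplp-0, the anchor, measured 6.76, 7.26, 7.19 and 7.38 in aptf-1(gk794) and 7.52, 7.17, 7.27 and 7.13 in N2. Both its extremes were replicates 1, and its 2 probes differed in sign, at -0.27 and 0.017. rplp-1 lay at 7.64 ± 0.24 and 7.79 ± 0.13, rplp-2.1 at 8.15 ± 0.28 and 8.16 ± 0.20, and rplp-2.2 at 6.70 ± 0.14 and 6.84 ± 0.11 in aptf-1(gk794) and N2 (SD, n = 4 each), and in each case the groups overlapped. Of the stalk genes rplp-0 and rplp-2.1 were among the 4 members with the widest spread between replicates. Without aptf-1(gk794) replicate 1 the median difference of the stalk genes was -0.018.

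Some ribosomal proteins are encoded by a pair of gene copies, and 5 such pairs could be compared within each array, so that a shift common to the array drops out. On the log2 scale the ratio of copies differed between aptf-1(gk794) and N2 by 0.070 ± 0.096 (SE) for rpl-11.1 over rpl-11.2, by -0.10 ± 0.076 for rpl-23A.1 over rpl-23A.2, by -0.049 ± 0.040 for rpl-37.1 over rpl-37.2, by 0.075 ± 0.11 for rpl-41.1 over rpl-41.2 and by 0.13 ± 0.094 for rplp-2.1 over rplp-2.2. The exact permutation p over 70 assignments ran from 0.229 to 0.629, two-sided, and from 0.476 to 0.629 after adjustment over the 5 pairs. No ratio was thus shown to differ. rpl-11.2 and rpl-23A.1 are the X-linked copies, and their partners lie on chromosomes V and I. rpl-23A.1, whose protein helps to dock the signal recognition particle at the tunnel exit, measured 5.24, 5.16, 5.27 and 5.10 in aptf-1(gk794) and 5.38, 5.40, 5.31 and 5.54 in N2 without overlap, a difference of -0.22 ± 0.083 (SE, adjusted p = 0.373). rpl-23A.2 differed by -0.11 with overlap, and by 0.072 under quantile normalization. Copies of a pair can share sequence, and cross-hybridisation between them was not tested.

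The remaining copies had small differences. rpl-11.1, part of the particle that joins the ribosome with its small structural RNA, lay at 6.85 ± 0.084 in aptf-1(gk794) and 6.90 ± 0.070 in N2, and rpl-11.2 at 5.65 ± 0.062 and 5.77 ± 0.12 (SD, n = 4 each). rpl-37.1 differed by -0.054 and rpl-37.2 by -0.0051, the latter with probes of opposite sign. rpl-41.1 and rpl-41.2 encode a very short basic peptide at the interface of the subunits, and each is read by 1 probe. rpl-41.2 measured 7.05, 7.25, 7.49 and 7.49 in aptf-1(gk794) and 7.58, 7.60, 7.42 and 7.63 in N2, a difference of -0.24 ± 0.12 (SE, adjusted p = 0.445) with overlap at N2 replicate 3. rpl-41.1 differed by -0.16 without overlap. Under quantile normalization rpl-11.1, rpl-11.2, rpl-37.1 and rpl-37.2 lay at 0.13, 0.022, 0.13 and 0.16.

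Relative to one another the members differed little. With the median of the 81 genes on each array set to 0, which no longer depends on the scaling factor of the array, 73 of the 81 genes differed between genotypes by less than 0.10 on the log2 scale. 1 gene then lay wholly lower in aptf-1(gk794), rps-19 at -0.073, and 1 wholly higher, rpl-11.1 at 0.095. Over all genes, 1.19% lay wholly lower and 8.34% wholly higher on this scale, and the share within 0.10 was not counted. The farthest from the common median were rps-27 at -0.36, rpl-4 at 0.22, rps-27A at 0.16 and rpl-24 at -0.15. These values carry no test, because the median was formed from the same genes.

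4 further genes belong to the cytosolic ribosome or bind it but carry other symbols. ubq-2, a fusion of ubiquitin and a large subunit protein, measured 6.09, 5.99, 6.18 and 5.88 in aptf-1(gk794) and 6.36, 6.24, 6.28 and 6.24 in N2, a difference of -0.25 ± 0.088 (SE, adjusted p = 0.347) without overlap. rack-1, a scaffold on the small subunit, differed by -0.13, with an adjusted p of 0.488. All 4 were lower under the 75th percentile, with a median of -0.13, and 0 were called.

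Other genes of protein synthesis gave smaller or similar medians, and 0 were called in any list. The counts below stand beside 54.7% of all genes lower under the 75th percentile, and 7.76% lower at an unadjusted p under 0.05. The 8 elongation and termination factors had a median difference of -0.16 under the 75th percentile and of -0.081 under quantile normalization. All 8 were lower under the first scaling, 3 at an unadjusted p under 0.05 and 0 higher. eef-1A.2, which brings the charged tRNA to the ribosome, measured 3.88, 3.54, 4.11 and 3.73 in aptf-1(gk794) and 4.20, 4.06, 4.20 and 4.30 in N2 (adjusted p = 0.338). eef-2, the translocase, measured 5.94, 5.90, 6.09 and 5.87 against 6.24, 6.13, 6.21 and 6.06 (adjusted p = 0.377). In both genes only a small part of the ranges overlapped.

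Of 34 initiation factors 28 were lower, with a median of -0.10, and 5 were so at an unadjusted p under 0.05. eif-3.H, a subunit of the scaffold factor of initiation, measured 1.06, 0.92, 1.03 and 0.74 in aptf-1(gk794) and 1.40, 1.18, 1.12 and 1.26 in N2 (adjusted p = 0.335). iff-2, whose product promotes formation of peptide bonds, differed by -0.32 (adjusted p = 0.354). The median of the list was -0.072 under quantile normalization.

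The 70 mitochondrial ribosomal proteins, which translate the few messages of that organelle, had a median of -0.061 with 59 lower and 11 higher, and 1 was lower at an unadjusted p under 0.05. That was mrps-14, at 3.18 ± 0.028 in aptf-1(gk794) and 3.42 ± 0.094 in N2 (SD, n = 4 each, adjusted p = 0.314). 21 genes of ribosome biogenesis had a median of -0.067, with 16 lower and 2 of these at an unadjusted p under 0.05, among them nola-3, a protein of the particles that modify ribosomal RNA, at -0.33 (adjusted p = 0.347). Of 3 subunits of RNA polymerase I, which transcribes the ribosomal RNA, rpoa-1 differed by -0.24 (adjusted p = 0.376) and the list by a median of -0.051.

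34 aminoacyl tRNA synthetases had a median of -0.013, with 19 lower and 15 higher, and 32 proteasome subunits one of -0.021, with 21 lower and 11 higher. Neither list had a gene at an unadjusted p under 0.05. Of 13 growth regulators 7 were lower and 6 higher. rsks-1, the S6 kinase that acts downstream of TOR on a ribosomal protein, measured -0.025, -0.38, -0.22 and -0.96 in aptf-1(gk794) and 0.41, 0.27, -0.076 and 0.18 in N2, a difference of -0.59 ± 0.21 (SE, adjusted p = 0.338) with overlap. akt-1, a kinase of insulin signalling, differed by 0.23 (adjusted p = 0.348). The 8 genes of nonsense-mediated decay had a median of 0.065 with 7 higher, 1 of them, smg-5, at an unadjusted p under 0.05, with a difference of 0.31 (adjusted p = 0.373).

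**Figure D5:**
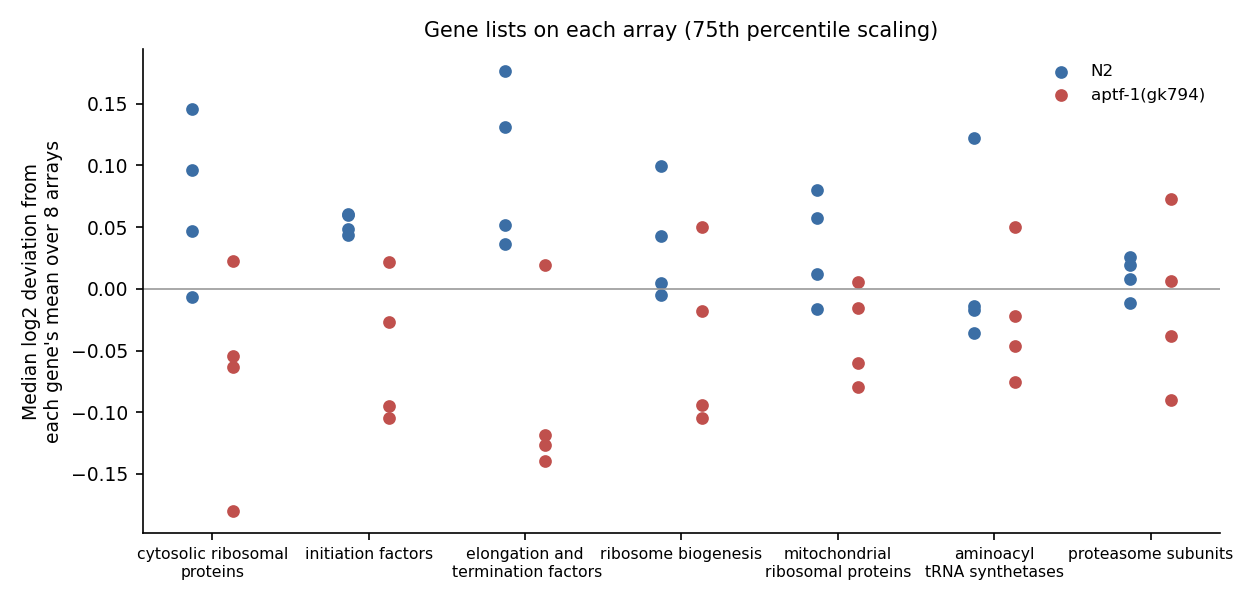
Median deviation of each gene list on each array from the gene means over 8 arrays, on the log2 scale under the 75th percentile scaling, with N2 in blue and aptf-1(gk794) in red; each point is 1 array. The elongation and initiation factors do not overlap between genotypes, the cytosolic ribosomal proteins do, and under quantile normalization the medians of these 3 lists differ by -0.081, -0.072 and 0.035.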

How the data were processed

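RNA of 8 pooled samples was read on 8 one-colour Agilent arrays. The deposited scanner files hold spot intensity from Feature Extraction 10.7.3.1 (background-subtracted by the authors' software), and the deposited table holds linear intensity that ranks as the scanner values do and has equal percentiles on all arrays, so it was quantile normalised. Each array was scaled to the 75th percentile of its non-control probes and taken to log2. Probes were named through the RefSeq gene table of WBcel235 by systematic name (34263 of 43603), and gene values are means of tested probes; probes with no match kept the name the array gives. The table calls the stalk genes rplp-, does not say which of 2 is rla-2, and both were kept; ribosomal genes renamed away from rpl- or rps- were listed apart. A probe was tested where all 4 arrays of either genotype were marked well above background. limma 3.58.1 (R 4.3.3) was fitted on genotype over all probes or genes, with Benjamini-Hochberg adjustment; a call needs an adjusted p under 0.05 and 1.5-fold, the fold the study states. The fit was tested on simulated data. Alternatives were quantile, median and spike-in (7 probes) scaling, normexp (offset 50, on median signals), the deposited table, filters, slide, position and replicate blocks, probe medians and leaving out each replicate. Named genes are those with the 6 largest differences either way, up to 8 whose groups do not overlap, the stalk, copies, 4 genes spliced for nonsense-mediated decay, the 4 widest spreads and probes of opposite sign; genes named outside this rule were chosen after their values were seen. The members and lists were chosen with earlier results of these data known. No probe or gene sequence was used here.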

Additional observations from a re-analysis of the deposited data

Results flagged for a closer look

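rps-27 was set apart from its own group on single arrays in both genotypes. The library labelled aptf-1(gk794) replicate 3 gave 4.50 on the log2 scale over the 75th percentile, while the other 3 samples of the genotype lay between 5.57 and 5.68, a gap of 0.90 of the range of the group. N2 replicate 3 gave 5.74, with the other 3 between 5.88 and 5.89 and a gap of 0.91 of a much smaller range. Such gaps pass Dixon's 95% limit for 4 samples, and chance would mark 2.8 of the 56 groups tested, of which 2 were marked.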

How the results depend on the processing

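No ribosomal protein probe was called under any alternative that was tested, and the direction of the median held under median scaling, both filters, both slide fits, the replicate block, the median of probes, each slide alone and the omission of each replicate. It turned under the 4 settings that follow, given as log2 differences of aptf-1(gk794) minus N2. Under quantile normalization the median was 0.035, with 0.033 for the large subunit, 0.029 for the small subunit and 0.061 for the stalk; 0 genes were lower and 3 higher at an unadjusted p under 0.05, and the groups lay apart for 0 lower and 6 higher genes. Differences there turned to 0.0097 for rpl-10a, 0.13 for rpl-11.1, 0.022 for rpl-11.2, 0.029 for rpl-12, 0.033 for rpl-13, 0.072 for rpl-23A.2, 0.13 for rpl-37.1, 0.16 for rpl-37.2, 0.082 for rpl-7A, 0.046 for rplp-0, 0.063 for rplp-1, 0.25 for rplp-2.1, 0.058 for rplp-2.2 and 0.0033 for rps-7, and the list median to 0.037 for the proteasome subunits. Under normexp correction with quantile normalization the median was 0.038, with 0.038 for the large subunit, 0.031 for the small subunit and 0.081 for the stalk; 0 genes were lower and 8 higher at an unadjusted p under 0.05, and the groups lay apart for 0 lower and 7 higher genes. Differences there turned to 0.017 for rpl-10a, 0.13 for rpl-11.1, 0.045 for rpl-11.2, 0.038 for rpl-12, 0.10 for rpl-13, 0.053 for rpl-23A.2, 0.11 for rpl-37.1, 0.14 for rpl-37.2, 0.072 for rpl-7A, 0.019 for rplp-0, 0.048 for rplp-1, 0.33 for rplp-2.1 and 0.11 for rplp-2.2, and the list median to 0.047 for the proteasome subunits and 0.0012 for the growth regulators. Under the deposited table the median was 0.039, with 0.039 for the large subunit, 0.034 for the small subunit and 0.062 for the stalk; 0 genes were lower and 4 higher at an unadjusted p under 0.05, and the groups lay apart for 0 lower and 8 higher genes. Differences there turned to 0.015 for rpl-10a, 0.13 for rpl-11.1, 0.025 for rpl-11.2, 0.032 for rpl-12, 0.031 for rpl-13, 0.076 for rpl-23A.2, 0.00057 for rpl-29, 0.13 for rpl-37.1, 0.16 for rpl-37.2, 0.085 for rpl-7A, 0.048 for rplp-0, 0.066 for rplp-1, 0.24 for rplp-2.1, 0.058 for rplp-2.2 and 0.0079 for rps-7, and the list median to 0.040 for the proteasome subunits. Under spike-in scaling the medians were 0.35 for the set, 0.35 for the large subunit, 0.34 for the small subunit and 0.35 for the stalk, with 0 genes lower at an unadjusted p and 0 lying apart, and the median of the set was 0.098 with N2 replicate 1 also left out; relative to all genes the turned values were 0.021 for rpl-37.2 and 0.013 for rplp-2.1 and 0.012 for the aminoacyl tRNA synthetases. With slide and position in the fit 0 genes were lower, the stalk median was -0.27, and the sign turned to 0.021 for rpl-23A.2, 0.19 for rpl-24, -0.30 for rpl-4 and -0.29 for rps-27A, and to 0.085 for the proteasome subunits and 0.24 for the growth regulators; with the slide alone in the fit 3 were lower, with no filter 2, and with median scaling 15, with groups apart for 38. Under median scaling 57.1% of all genes were lower. The share of all genes with groups apart was not counted for median scaling, normexp or the deposited table. The share at an unadjusted p was not counted for them either. Requiring signal above background on all 8 arrays gave 0.0039 for the growth regulators. Leaving out 1 replicate at a time moved values from 0 to 12 for genes lower at an unadjusted p, from -0.20 to -0.018 for the stalk, from -0.068 to 0.071 for rpl-37.2, from -0.20 to 0.0035 for rplp-0, from -0.12 to 0.10 for rplp-2.1, from -0.062 to 0.10 for rps-27A, from -0.046 to 0.0075 for the proteasome subunits, from -0.083 to 0.033 for the growth regulators and from -0.048 to 0.0044 for the aminoacyl tRNA synthetases; the median of the set lay lowest, at -0.17, without N2 replicate 3, and nearest 0, at -0.11, without aptf-1(gk794) replicate 1. The causes were not tested. The slides alone, the spike-in scaling without N2 replicate 1, the median-centred values and the percentiles of other probes were chosen after seeing the data. The number of arrays limits the precision.

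With replicate number as a block the median difference of the ribosomal protein genes was -0.14. At an unadjusted p under 0.05, 0 genes were then lower, against 9 without the block. Same-numbered arrays correlated at -0.17, 0.24, 0.15 and 0.18 in their deviations from the genotype means. The main fit did not pair the samples by number for this reason, but these correlations do not describe single probes. A probe of rpl-10L and a probe of rpl-15 stood higher on replicates 1 and 3 than on 2 and 4 in both genotypes. The brighter probe of rpl-13 did not. How many probes share this pattern was not counted, and whether same-numbered samples were handled together was not tested. The replicate block changed no call, and the smallest adjusted p of a member was then 0.408.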
